A study of Mus musculus with 4 samples.

Results

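Open chromatin far from any gene was examined in peak lists from newborn mouse hearts. Peaks of 4 lists on chromosomes 1 to 19 sharing 1 bp or more were merged, which gave 20624 regions. Of these, 2024 had a midpoint outside all genes and more than 10 kb from every gene boundary, counting genes of any biotype in the mouse RefSeq annotation of GRCm38. The other regions comprised 1998 that lay outside genes at 1 to 10 kb from a boundary, 7410 inside genes, and 9192 within 1 kb of a boundary.

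The assay was ATAC-seq, which sequences the DNA fragments that a transposase releases from accessible chromatin. Wild-type (WT) mice gave 2 libraries, and 2 came from mice that overexpressed the microRNA miR-187, all at P0, and the labels name only heart as the tissue. The study describes its knock-in line as carrying exogenous miR-187 at the Rosa26 site on a C57BL/6J background, driven by the endothelial Tek (Tie2) promoter, and its cardiac endothelial cells as captured by CD31. The study's genotypes for its mouse accessibility data are +/+ and KI/KI, that is, wild type and homozygous knock-in, which the labels do not state. The labels do not give the number of animals per library either, so p-values measure only the spread between libraries, which may be technical. With 2 libraries per group, the smallest p of the exact permutation test is 0.333, and that of an exact sign-flip test over the 4 libraries is 0.125.

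Accessible regions away from genes are often enhancers, stretches bound by transcription factors that act on promoters at a distance through looping of the chromatin fibre. Their activity differs more between cell types than that of promoters. Other accessible sites far from genes are bound by CTCF, which together with cohesin anchors chromatin loops. Accessibility by itself does not separate these kinds of element, and the nearest gene need not be the gene that an element acts on.

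Each library had its own list of peaks, and lists were not pooled. On chromosomes 1 to 19 the WT lists held 9307 and 12155 peaks and the miR-187 lists 7407 and 1461. Depth was inferred from the peak values as a background of 1751 and 5227 reads per Mb in WT and 2016 and 1032 in miR-187. MiR-187 rep 2 therefore had both the shortest list and the lowest depth, and values are given with and without it where it decides them. Among lists of marker genes, a peak within 1 kb of a boundary was found in 6, 7, 6 and 1 of 30 endothelial transcription factors and in 8, 10, 5 and 2 of 26 endothelial receptors, in the order WT rep 1, WT rep 2, miR-187 rep 1 and miR-187 rep 2 (the order used throughout). The same counts were 2, 0, 0 and 0 of 18 cardiomyocyte genes, 0, 0, 1 and 0 of 14 blood and immune cell genes, and 2, 5, 1 and 0 of 14 fibroblast and mural cell genes. In the other gene lists the counts were 7, 6, 3 and 0 of 27 mesenchymal and epicardial factors, 6, 11, 5 and 0 of 20 AP-1 and immediate-early genes, 1, 4, 4 and 0 of 30 cardiac transcription factors, and 0 of 24 neural factors in each list. No share over all protein-coding genes stands beside these counts, so they do not show which cell types the libraries held.

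The first comparison asked how many peaks lay far from genes in each list. WT reps 1 and 2 held 893 and 840 such peaks, and miR-187 reps 1 and 2 held 501 and 201. Both miR-187 lists had fewer than both WT lists. The mean was 866.5 ± 37.5 for WT and 351 ± 212 for miR-187 (SD, n = 2 each), a difference of -515.5 peaks with an exact permutation p of 0.333. When each list was cut to its 1461 strongest peaks, 83 and 52 of them lay far from genes in WT and 54 and 201 in miR-187. The difference was then 60 peaks in the other direction, with an exact permutation p of 0.667. It rested on miR-187 rep 2, whose list was not shortened by the cut. Without that library the difference was -13.5 peaks (n = 2 and 1, not tested), an alternative added after seeing the data.

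As a share of the list, peaks far from genes made up 9.59% in WT rep 1 (95% Wilson interval 9.01 to 10.2) and 6.91% in WT rep 2 (6.47 to 7.38). They made up 6.76% in miR-187 rep 1 (6.21 to 7.36) and 13.8% in miR-187 rep 2 (12.1 to 15.6). The groups overlapped, with the highest and the lowest share both in miR-187. The mean was 8.25 ± 1.90% in WT and 10.3 ± 4.95% in miR-187, and the difference of 2.01 percentage points had an exact permutation p of 1 (n = 2 each). Without miR-187 rep 2 the difference was -1.49 points, so that library decided its direction. The intervals cover counting error only. In lists cut to 1461 peaks the shares were 5.68%, 3.56%, 3.70% and 13.8%, so the strongest peaks of the 3 deeper libraries lay far from genes less often than their whole lists did.

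Sequence more than 10 kb from genes covered 854 Mb, or 35.0% of the sequence between the first and last genes of the chromosomes, and held 9.81% of the regions. That is 2.37 regions per Mb, against 5.89 at 1 to 10 kb from genes, 6.77 inside genes and 59.7 within 1 kb of a boundary. The order of density was the same in each of the 4 lists. It ran from 1.05, 0.977, 0.585 and 0.235 regions per Mb far from genes up to 28.9, 42.9, 26.3 and 4.10 at boundaries. By chromosome, the share of regions that lay far from genes ranged from 5.80% on chromosome 19 to 14.5% on chromosome 13.

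**Figure D1:**
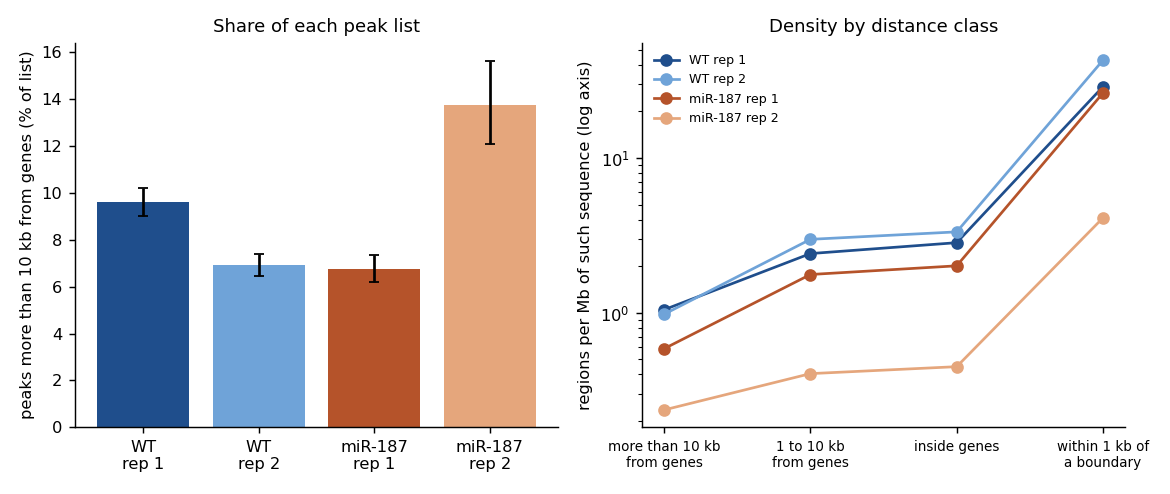
Left, peaks more than 10 kb from genes as a share of each list (%), with 95% Wilson intervals. Right, regions per Mb of sequence in each class of distance (log axis), with 1 line per library. MiR-187 rep 2 had the highest share, 13.8%, and in each list the density was lowest far from genes and highest at gene boundaries.

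Most of these regions were found in 1 library only. Of the 2024 regions, 1724 had a peak in 1 list, 209 in 2, 77 in 3 and 14 in all 4. The 300 found in 2 or more lists made up 14.8% (95% Wilson interval 13.3 to 16.4). The same share was 21.4% at 1 to 10 kb from genes, 20.4% inside genes and 48.5% within 1 kb of a boundary. The regions of 1 list comprised 684 of WT rep 1, 577 of WT rep 2, 298 of miR-187 rep 1 and 165 of miR-187 rep 2.

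Recovery was then compared within each library, as the share of its peaks that overlapped a peak of any other list. Far from genes this share was 23.4% in WT rep 1, 31.3% in WT rep 2, 40.5% in miR-187 rep 1 and 17.9% in miR-187 rep 2. For all other peaks it was 54.9%, 51.9%, 65.0% and 55.8%. The share was lower far from genes in 4 of 4 libraries, with a difference of -28.6 ± 7.64 percentage points (SD, n = 4, exact sign-flip p = 0.125). A shared region counts in each list that holds it. The 4 differences in recovery, here and in the comparisons below, are therefore not independent. When the other peaks were weighted to the same deciles of strength, the difference was -24.3 ± 8.93 points (exact sign-flip p = 0.125, n = 4), an alternative chosen after seeing the data. Against peaks inside genes alone it was -8.77 ± 4.93 points, and -7.23 ± 4.89 points after the same weighting, again negative in 4 of 4 libraries (exact sign-flip p = 0.125 for each, n = 4). With lists cut to 1461 peaks the difference from all other peaks was smaller, -11.5 points, and still negative in 4 of 4 libraries (exact sign-flip p = 0.125, n = 4).

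Each list was divided into quintiles of strength by -log10 q. In the 3 deeper libraries the strongest quintile was recovered most often in each class, but the step between the classes differed between libraries. In the weakest quintile of WT rep 1, 7.52% of the peaks far from genes were found in another list, against 30.2% of the other peaks. In its strongest quintile the shares were 56.4% and 78.9%. In the strongest quintile of miR-187 rep 1 they came to 78.2% (65.6 to 87.1) and 85.6% (83.7 to 87.3), with overlapping intervals. Peaks inside genes had 70.1% (65.1 to 74.6) there, below the distal peaks, although the difference over that whole list was negative. In miR-187 rep 2 the strongest quintile had 23.1% far from genes (12.6 to 38.3) and 61.2% among the other peaks (54.8 to 67.2). The strongest peaks of that library far from genes were thus found elsewhere less often than those of the other 3 libraries.

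**Figure D2:**
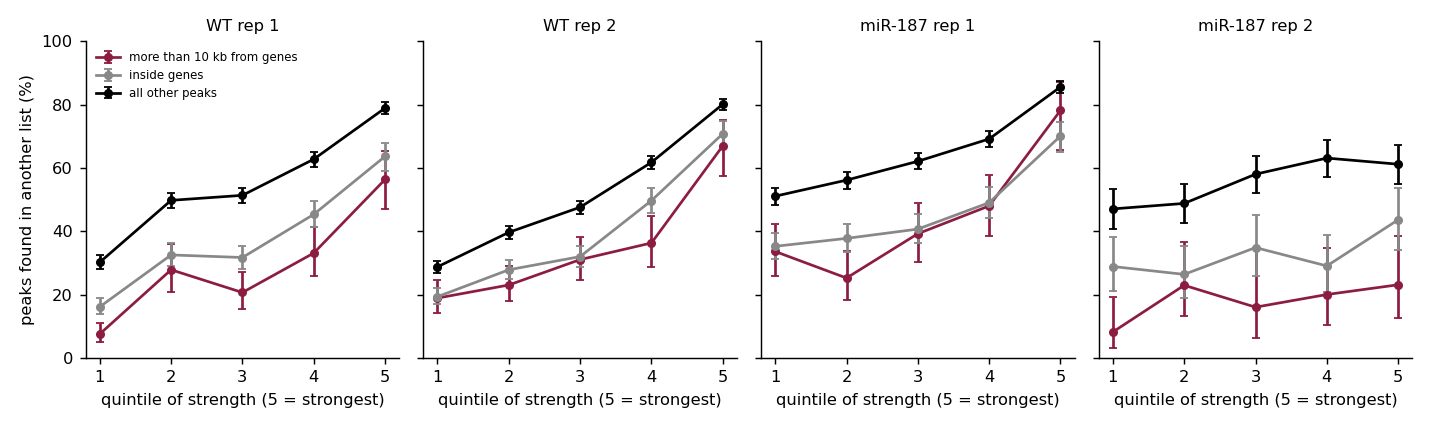
Share of peaks found in another list (%) by quintile of strength within each list (-log10 q, 5 = strongest), with 95% Wilson intervals, for peaks more than 10 kb from genes, peaks inside genes and all other peaks. In each quintile of each list the peaks far from genes lie below all other peaks; in WT rep 1 the shares run from 7.52% to 56.4% and in miR-187 rep 2 from 8.16% to 23.1%.

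Between pairs of libraries, the Jaccard index (regions shared over regions in either list) of regions far from genes was 10.9% between the WT libraries and 3.39% between those of miR-187. It was 13.7% for WT rep 2 with miR-187 rep 1, higher than for the WT pair, and 9.25% for WT rep 1 with miR-187 rep 1. With miR-187 rep 2 it was 2.0% for WT rep 1 and 3.08% for WT rep 2. For all other regions the index was 25.9% in the WT pair, 5.64% in the miR-187 pair and 27.4% for WT rep 2 with miR-187 rep 1. The index is bounded by the lengths of the lists, which held 893, 835, 500 and 201 regions far from genes, so the order of the pairs was not read as one of genotypes.

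To ask which distal regions were found in 1 genotype only, regions were counted that had a peak in both lists of a group and in neither list of the other. There were 85 WT-only regions far from genes, or 4.2% of 2024, against a background of 8.6% of all regions. There were 3 miR-187-only regions, 0.148%, against a background of 0.155%. In lists cut to the 1461 strongest peaks there were 6 WT-only regions of 344 (1.74%, background 4.19%) and 5 miR-187-only regions (1.45%, background 1.68%). WT-only and miR-187-only regions thus numbered 85 and 3 with whole lists and 6 and 5 with lists of equal length. The counts, WT-only first, were 148 and 168 without miR-187 rep 1 and 90 and 301 without miR-187 rep 2, so the order of the counts was then the opposite. They were 667 and 4 without WT rep 1 and 775 and 7 without WT rep 2. A group left with 1 list needs no overlap, which raises its count by construction.

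Peaks of both WT lists met in 170 distal regions, of which 85 lacked a miR-187 peak, or 50.0% (95% Wilson interval 42.6 to 57.4). The share was 42.2% over all regions, 52.1% at 1 to 10 kb from genes, 50.8% inside genes and 38.3% at boundaries. The WT-only peaks had lower medians than the 85 that also had a miR-187 peak. Their median reads at the summit were 8 against 10 in WT rep 1 and 13 against 16 in WT rep 2, and their median percentile ranks were 51.6 against 77.0 and 49.7 against 71.0.

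The next question was how strong and wide the distal peaks were. Strength was taken as the percentile rank of -log10 q within a list, and reads at the summit as the pileup solved from the fold enrichment and p-value of the peak caller. The median rank far from genes was 39.9, 39.7, 42.0 and 44.1 in the same order of libraries. For the other peaks it was 51.6, 50.9, 50.6 and 50.2. The difference was -9.37 ± 2.59 ranks, negative in 4 of 4 libraries (exact sign-flip p = 0.125, n = 4). The other peaks include those at boundaries, and peaks inside genes alone had medians of 43.5, 42.0, 44.2 and 44.1, much closer to the distal ones and equal to them in miR-187 rep 2. Among the strongest 1461 peaks of each list the difference from all other peaks was -0.30 ranks, negative in 2 of 4 libraries. Among peaks whose -log10 q reached 5 it was -5.30 ranks (exact sign-flip p = 1 and 0.375 for the 2 settings, n = 4). In the first of these WT rep 2 and miR-187 rep 1 had the higher median far from genes, 56.1 against 49.8 and 52.8 against 49.1. In the second only miR-187 rep 2 did, 54.9 against 49.6. The median fold enrichment far from genes was 5.06, 4.91, 5.41 and 5.30.

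Few reads lay behind a typical distal peak. The median was 6 reads at the summit in WT rep 1, 12 in WT rep 2, 8 in miR-187 rep 1 and 6 in miR-187 rep 2, against 9, 15, 10 and 7 at gene boundaries. Peaks at 1 to 10 kb from genes and peaks inside genes both had medians of 7, 13, 9 and 6 reads, so the low counts were nearly shared by these classes and were the same in miR-187 rep 2. The lowest was 4, 7, 5 and 4 reads. Median widths were 220, 272, 247 and 216 bp, against 280, 329, 291 and 213 bp for the other peaks. Inside genes they were 252, 289, 265 and 200 bp and at 1 to 10 kb 252.5, 279, 256 and 200 bp, closer to the distal widths in the WT lists and miR-187 rep 1 and narrower than them in miR-187 rep 2. The difference from all other peaks was -39.5 ± 29.2 bp, negative in 3 of 4 libraries with miR-187 rep 2 as the exception (exact sign-flip p = 0.25, n = 4). The smallest width in the lists was 200 bp, and 42.2%, 24.2%, 32.3% and 44.3% of the distal peaks had it.

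Distal peaks stood on a lower local background than the rest. A background of at least 2 times the lowest of the list was found at 15.9%, 15.5%, 25.5% and 13.9% of them, against 50.3%, 42.2%, 53.0% and 37.8% of the other peaks. The difference from all other peaks was -28.1 ± 4.47 percentage points and was negative in 4 of 4 libraries (exact sign-flip p = 0.125, n = 4). At 1 to 10 kb from genes the share was 35.8%, 29.7%, 41.4% and 26.8%, and inside genes 37.6%, 34.9%, 44.8% and 27.3%. Both lay between the distal share and that of all other peaks in each list. A higher local background lowers the fold enrichment that a given number of reads yields.

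Regions shared by more lists had more reads at the summit in the 3 deeper libraries. In WT rep 1 the median went from 6 reads and 200 bp for regions of 1 list to 8 reads and 280 bp for 2, 10 reads and 324.5 bp for 3 and 11.5 reads and 323 bp for 4. In WT rep 2 it was 11, 13, 15 and 20 reads, with widths of 255, 307, 358.5 and 370.5 bp, and in miR-187 rep 1 it was 7, 8, 9 and 13 reads. MiR-187 rep 2 had 6, 6, 7 and 8 reads over the same classes, and its widths of 204, 200, 246 and 237 bp had no such order. Within that list, the median rank of regions of 1 list, 44.1, was above that of regions of 2 lists, 39.0. For 3 and 4 lists it was 54.5 and 66.3. The 4 classes held only 165, 11, 11 and 14 peaks of that list.

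**Figure D3:**
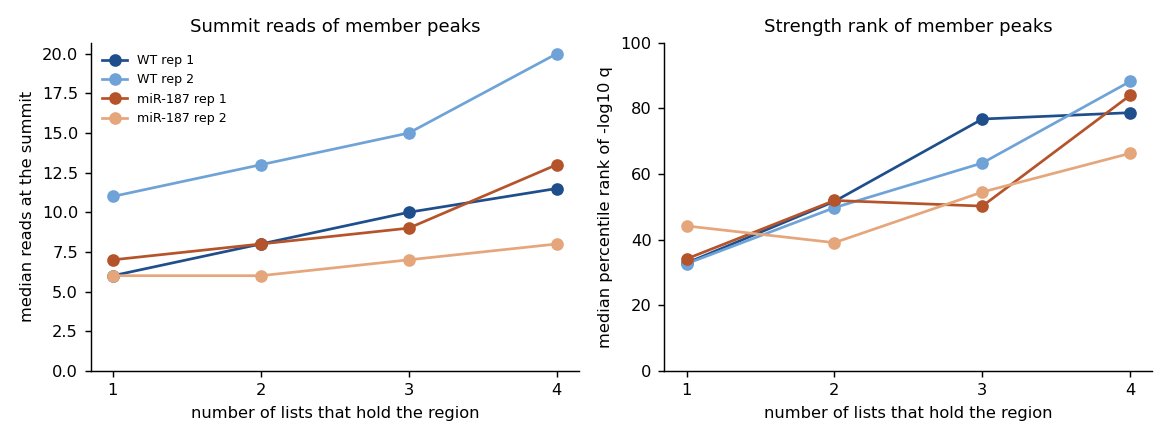
Median reads at the summit (left) and median percentile rank of -log10 q (right) of the peaks far from genes, by the number of lists that hold the region, with 1 line per library. Reads go from 6 to 11.5 in WT rep 1 and from 11 to 20 in WT rep 2, and from 6 to 8 in miR-187 rep 2.

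The distance threshold was not a step in these values. The 287 regions at 8 to 10 kb from a gene, just outside the rule, were found in 2 or more lists in 19.9% of cases, and the 261 at 10 to 12 kb, just inside it, in 18.0%. Their median ranks were 43.5 and 43.6 and their median widths 266 and 252 bp.

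Recovery was lower at greater distance from genes. The median distance to the nearest gene of any biotype was 22.8 kb, and to the nearest protein-coding gene 51.3 kb. Regions found in 2 or more lists lay at a median of 17.7 kb from a gene and 33.2 kb from a protein-coding gene, and regions of 1 list at 24.3 and 57.4 kb. The share found in 2 or more lists was 20.3% (17.7 to 23.1) at 10 to 20 kb, 13.8% (11.5 to 16.4) at 20 to 50 kb, 6.51% (4.1 to 10.2) at 50 to 100 kb and 4.24% (2.07 to 8.50) beyond 100 kb. These shares pool libraries whose mix changed with distance, since WT rep 2 held 413 of the 857 regions at 10 to 20 kb and 34 of the 165 beyond 100 kb. Within each list, the share of its regions also found elsewhere was 33.5%, 36.1%, 48.0% and 28.2% at 10 to 20 kb and 4.49%, 17.6%, 24.0% and 3.70% beyond 100 kb, lower in 4 of 4 lists. At 50 to 100 kb it was 8.66%, 16.9%, 23.1% and 12.1%, so WT rep 2 and miR-187 rep 1 showed no further fall. Beyond 100 kb the lists held only 89, 34, 25 and 27 regions. The nearest gene was a long noncoding RNA for 40.3% of the regions, protein-coding for 34.2% and a pseudogene for 19.9%.

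Long gene-free gaps held fewer regions for their length. Per Mb of eligible sequence there were 6.01 regions in gaps of 20 to 50 kb between neighbouring genes, 4.20 in gaps of 50 to 100 kb, 2.33 in gaps of 100 to 200 kb, 1.23 in gaps of 200 to 500 kb and 0.537 in longer gaps. The density was lower at each step in WT rep 2, from 3.05 to 0.0963 regions per Mb, and in miR-187 rep 1, from 1.74 to 0.0757. It was also lower at each step in WT rep 1, from 2.47 to 0.282, and in miR-187 rep 2, from 0.531 to 0.0963. The share found in 2 or more lists was 22.1% in the shortest gaps and 1.28% in the longest, which is 1 of 78 regions. The mix of libraries differed too, with WT rep 2 the densest of the 4 in the shortest gaps and WT rep 1 in the longest. Within each list the share of its regions also found elsewhere was 35.6%, 37.9%, 50.7% and 36.4% in the shortest gaps and 8.20%, 24.7%, 29.0% and 4.0% in gaps of 200 to 500 kb, lower in 4 of 4 lists. The longest gaps held 41, 14, 11 and 14 regions of the lists. The median strength rank within a list was lower in the longest gaps than in the shortest, 17.7 against 43.5, 32.5 against 43.6, 28.1 against 42.0 and 13.8 against 50.5, but in none of the lists lower at each step. The part of strength in the lower share was not tested.

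**Figure D4:**
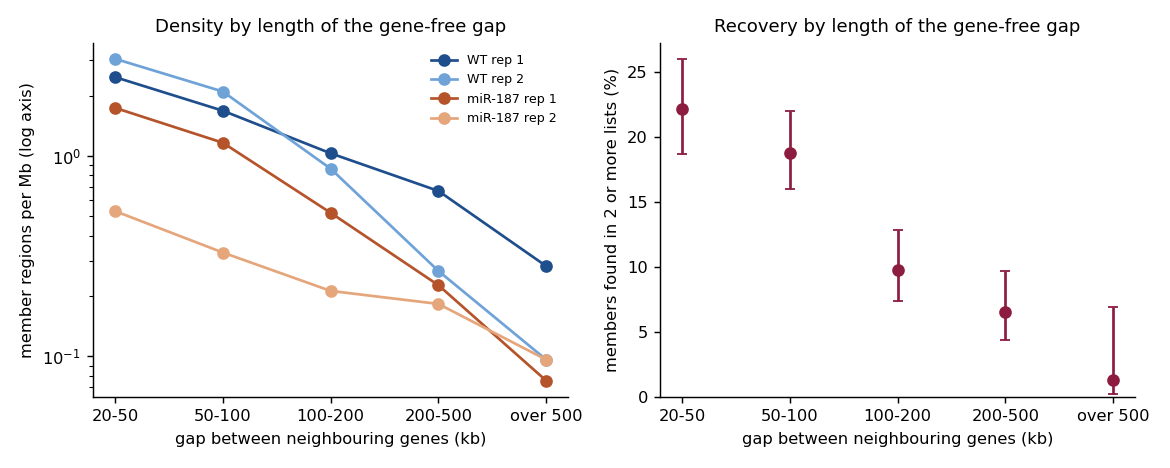
Left, member regions per Mb of sequence more than 10 kb from genes (log axis) by length of the gap between neighbouring genes (kb), with 1 line per library. Right, share found in 2 or more lists (%) with 95% Wilson intervals, which goes from 22.1% in gaps of 20 to 50 kb to 1.28% in gaps over 500 kb.

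Clustering was described by the next distal region within 10 kb, edge to edge. Such a neighbour was found for 303 of the 2024 regions (15.0%, 13.5 to 16.6), in 139 chains of which 121 held 2 regions, 12 held 3, 5 held 4 and 1 held 5. The share was 15.8% among regions at 1 to 10 kb from genes, 23.9% inside genes and 29.7% at boundaries. Within single lists it was 4.03% in WT rep 1, 13.1% in WT rep 2, 5.59% in miR-187 rep 1 and 0.995% in miR-187 rep 2, highest in the deepest library. Regions of 2 or more lists had such a neighbour in 21% of cases (16.8 to 26.0) and regions of 1 list in 13.9% (12.4 to 15.6). Neighbours are counted together and the sets differ in their mix of lists, so these shares are a description without a test.

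The largest chain had 5 regions over 13.7 kb at chr19:45207895-45221611, between Tlx1 and Lbx1, both homeobox genes, and each of its regions came from 1 list. WT rep 1 held 2 of them, WT rep 2 held 2 and miR-187 rep 1 held 1. A chain of 4 at chr2:30743145-30758812, between Cstad and 1700001O22Rik, had 3 regions in 2 or more lists and 8 peaks in all, 1 of them from miR-187 rep 2. The chains of 4 at chr5:29845162-29865443, between Dnajb6 and the cytokine gene Il6, and at chr8:126517308-126539876, between Tarbp1 and Irf2bp2, held regions of 1 list each.

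Individual regions with a peak in all 4 lists were few, and 3 of the 14 lay in 2 loci with very high read pileups. At chr3:5860258-5860912, which is 282 kb from Pex2, a peroxisome assembly gene, the summits held 38 and 62 reads in WT and 32 and 26 in miR-187, with fold enrichments of 14.8, 16.2, 13.3 and 13.5. This is the highest fold enrichment among the distal peaks in each list. At chr2:98662419-98662830 the summits held 27, 61, 24 and 27 reads on a local background 5.37, 3.12, 3.08 and 7.36 times the lowest of the list. The neighbouring region chr2:98667069-98667326 had 19, 23, 12 and 15 reads on a similarly raised background. The nearest protein-coding gene to both, Lrrc4c, lies 1031 and 1036 kb away. Whether reads there derive from repeated sequence was not tested. Leaving out the 3 distal regions of this locus, an alternative added after seeing the data, left 2021 regions and moved recovery against the other peaks from -28.6 to -29.0 points.

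The other regions of all 4 lists included 2 beside endothelial transcription factor genes. At chr4:55514770-55515189, 12.2 kb from Klf4, a zinc-finger factor induced by shear stress in endothelium, there were 10 and 17 reads in WT and 10 and 10 in miR-187. The -log10 q was 5.13, 6.59, 6.39 and 5.35, and the groups overlapped. At chr16:95341404-95341850, 17.5 kb from Erg, an ETS factor that maintains endothelial identity, there were 12 and 30 reads in WT and 20 and 5 in miR-187. Here the -log10 q was 5.38 and 17.5 in WT and 12.3 and 1.71 in miR-187, and the order of the 4 values is that of the depths. A region between Ly6c1 and Ly6c2, genes for surface antigens of leukocytes and endothelium, at chr15:75086622-75087027 had 14, 17, 13 and 15 reads. It was the only one of the 14 where the shallowest library had the highest -log10 q, 11.2 against 9.85, 9.28 and 9.62.

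The remaining 8 lay between 12 and 590 kb from a protein-coding gene. Lrig2, a transmembrane leucine-rich repeat gene, lay 12 kb from chr3:104441649-104442350, where the lists had 13, 32, 21 and 8 reads. Zfp532 lay 14.4 kb from chr18:65565510-65566074, with 5, 17, 10 and 5 reads. Klrb1c, a natural killer cell receptor gene, was 14.2 kb from chr6:128764089-128764518, which had 10, 27, 13 and 7 reads. The lowest -log10 q in these 3 regions was in miR-187 rep 2, at 2.59, 2.14 and 3.21. At chr18:5989565-5990275, between Zeb1 and Arhgap12, 34.5 kb from the latter, there were 10, 17, 15 and 8 reads. The region chr8:73353409-73353844, 590 kb from the thrombin receptor gene F2rl3, had 11, 16, 14 and 8. In each of the 8 regions WT rep 2 had the most reads and miR-187 rep 2 the fewest or as few as any. This held for chr12:69537895-69538559, 12.5 kb from Gm46353, with 12, 16, 10 and 9 reads. Another, chr4:133910378-133911212, 23.0 kb from the kinase gene Rps6ka1, had 9, 25, 11 and 6.

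**Figure D5:**
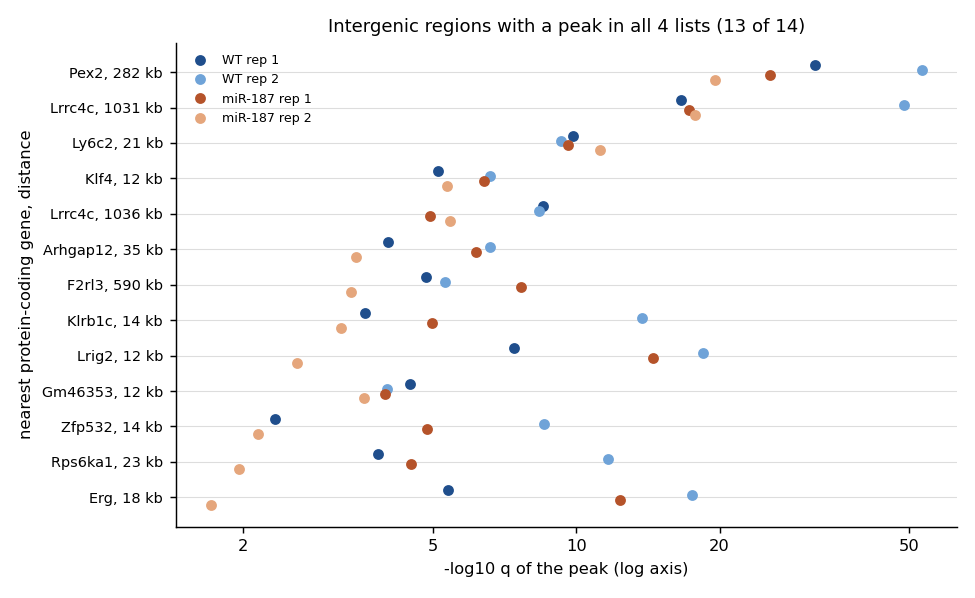
The -log10 q (log axis) of 13 of the 14 regions far from genes with a peak in all 4 lists, named by the nearest protein-coding gene and its distance in kb, with 1 point per library. Values near Klf4 lie between 5.13 and 6.59 in the 4 libraries, and those near Erg between 1.71 and 17.5.

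The strongest WT-only region by its lower rank, chr15:85610578-85611166, lay between Wnt7b, which encodes a Wnt ligand, and Ppara, a nuclear receptor gene of fatty acid metabolism. It had 15 and 24 reads in the WT lists and no peak in the miR-187 lists. The next were chr7:30373614-30374193 11.1 kb from Lrfn3 with 9 and 17 reads, chr13:110696545-110696990 with 10 and 14, 296 kb from the kinase gene Plk2 and 10.1 kb from the noncoding gene Gm33172, chr10:21465443-21465702 between Aldh8a1 and the kinase gene Sgk1 with 10 and 14, and chr17:63849516-63849898 12.4 kb from the tyrosine kinase gene Fer with 10 and 14. A missing peak means that the caller's threshold was not reached, since no read counts were used for regions outside a list.

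The 3 miR-187-only regions had 5 to 11 reads at their summits. At chr17:8505855-8506305, between T, a T-box gene of mesoderm, and Pde10a, a phosphodiesterase gene, the miR-187 lists had 11 and 11 reads. At chr8:89571805-89572161, between Sall1 and Tox3, they had 9 and 7. At chr9:63909587-63909859 they had 9 and 5. This last region lay between Smad3, a transducer of TGF-β signals, and Smad6, an inhibitor of BMP signals.

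Of the regions found in at least 2 lists, the 5 farthest from any gene lay 113 to 179 kb from one. The farthest, chr8:128025146-128025508, was 179 kb from a gene of any biotype and 333 kb from Nrp1, a co-receptor for VEGF and semaphorins, with 9 reads in WT rep 2 and 6 in miR-187 rep 1. Next was chr9:49989855-49990224 near the adhesion gene Ncam1, 164 kb from a gene, with 14 reads in WT rep 2 and 13 in miR-187 rep 1. The region chr18:11221856-11222343 was 136 kb from Gata6, a zinc-finger factor of heart and outflow tract development, and had 7 and 16 reads in the WT lists alone. At chr1:128722097-128722491, 130 kb from the chemokine receptor gene Cxcr4, there were 7 reads in WT rep 1 and 7 in miR-187 rep 1. At chr4:56113489-56114227, 113 kb from a noncoding gene and 581 kb from Klf4, there were 7, 18 and 12 reads in the WT lists and miR-187 rep 1.

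The 2024 regions had 1463 different nearest protein-coding genes. Counts per gene were not scaled to the length of distal sequence nearest to it, so the genes are ranked by count only. The gene with most of them was Klf6, a zinc-finger factor with an immediate-early response, with 10 regions at 16.1 to 541 kb, of which WT reps 1 and 2 held 4 and 5 and miR-187 reps 1 and 2 held 3 and 2. The strongest of these, chr13:5614186-5615233, had 15 and 19 reads in WT and 9 in miR-187 rep 1. Of the other two shared regions, chr13:5592456-5592922 had 8 and 12 reads in the WT lists alone, and chr13:5845162-5845551 had 17 in WT rep 2 and 7 in miR-187 rep 1. Irf2bp2, which encodes a transcriptional co-repressor, had 7 regions, 1 of them in 2 or more lists. At that region, chr8:126666306-126667157, there were 15, 25 and 12 reads in the WT lists and miR-187 rep 1, on a background 6.11, 4.1 and 5.46 times the lowest.

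The gap between Foxl1, a forkhead gene, and 1700018B08Rik held 12 regions, 5 nearer to Foxl1 and 7 nearer to 1700018B08Rik, of which 3 were in 2 or more lists. Klf4 had 6 regions, 3 of them in 2 or more lists. Besides the pair described above, chr4:55650922-55651739, 119 kb from the gene, had 8 and 18 reads in the WT lists alone. The gene Lrrc4c also had 6, of which 3 form the locus of high background described above. Runx1, a factor of blood formation from endothelium, had 6 regions, 3 in WT rep 1 and 3 in WT rep 2, none shared. Of the 5 regions of Tns3, a focal adhesion gene, 4 had a peak in miR-187 rep 1 only and 1 in WT rep 1 only. S1pr1, Tmco5, Dleu7 and Zfp608 had 5 regions each, of which 1 near S1pr1 was in 2 or more lists. Lbx1 also had 5, those of the largest chain.

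Lists of genes were then used to describe the nearest protein-coding genes, with the regions at 1 to 10 kb from genes beside them. The length of distal sequence nearest to the genes of a list is not given. The shares are therefore a description without a background, and no enrichment is read from them. Endothelial transcription factors were nearest to 20 of the 2024 distal regions (0.988%) and to 13 of the 1998 nearer ones (0.651%). Of the 20 regions, 6 were in 2 or more lists, near Klf4, Erg, Foxo1 and Meox1. The region near the forkhead gene Foxo1, chr3:52443956-52444196, had 8 and 12 reads in the WT lists and none listed in miR-187. The region near the homeobox gene Meox1, chr11:101832043-101832457, had 12 reads in WT rep 2 and 8 in miR-187 rep 1.

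Endothelial receptors and surface genes were nearest to 19 distal regions (0.939%) and 8 nearer ones (0.400%), and 4 of the 19 were in 2 or more lists. The region chr2:26525666-26526119, between the receptor gene Notch1 and Egfl7, a secreted endothelial factor, had 10 and 17 reads in WT and 15 in miR-187 rep 1. The region near S1pr1, the sphingosine-1-phosphate receptor gene of endothelium, chr3:115763033-115763588, had 8 and 11 reads in the WT lists alone. A second region near Nrp1, chr8:128564062-128564404, had 6 reads in WT rep 1 and 6 in miR-187 rep 1. Kdr, the main VEGF receptor gene, had 4 regions and Cdh5, the gene for VE-cadherin, had 3, each region in 1 list; both genes were chosen after their counts were seen.

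Cardiac transcription factors were nearest to 12 distal (0.593%) and 10 nearer regions (0.501%), and both of the distal ones in 2 or more lists were near Gata6. Besides the region above, chr18:11352090-11352888 had 11 and 22 reads in WT and 11 in miR-187 rep 1. Mesenchymal and epicardial factors were nearest to 21 distal (1.04%) and 17 nearer regions (0.851%). The only distal one in 2 or more lists was chr18:5819599-5820650 near Zeb1, a repressor active in epithelial to mesenchymal transition, with 19 reads in WT rep 2 and 14 and 5 in miR-187. AP-1 and immediate-early genes were nearest to 12 distal (0.593%) and 16 nearer regions (0.801%), 10 of the 12 near Klf6.

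Neural transcription factors were nearest to 1 region at 1 to 10 kb and to 4 distal regions, none of the distal ones in 2 or more lists. Fibroblast and mural cell genes were nearest to 3 regions at 1 to 10 kb and to 2 distal ones, the latter both near Dcn, the gene for the matrix proteoglycan decorin. Of these, chr10:97312997-97313282 had 19 reads in WT rep 2 and 14 in miR-187 rep 1. Cardiomyocyte genes and blood and immune cell genes were nearest to no distal region. At 1 to 10 kb they were nearest to 6 and 0 regions.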

How the data were processed

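The authors deposited 1 narrowPeak list per library, with a score, a fold enrichment (a ratio), and −log10 p and −log10 q values for each peak. Per the labels, reads were paired, the build was mm10, and the submitters' processing notes name Bowtie2 2.2.6, SAMtools 1.10 and MACS2 2.2.7.1 without roles. The largest q was 0.0498. The deposited values served to rank peaks within a list and to solve reads at the summit and local background. The solver takes the fold as (reads + 1)/(background + 1) and p as an upper Poisson tail. It solved 100% of peaks within 0.0005 in −log10 p, and recovered 100% of 3952 peaks when tested on simulated data. Depth is the lowest background over 200 bp.

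Coordinates are 1-based. The gene table was RefSeq on GRCm38 (47038 genes on chromosomes 1 to 19, 20661 protein-coding). It holds no strand, so distances run to either boundary. The 431 peaks on other chromosomes and scaffolds were left out. Lists shared 6 identical peaks. Members and gene lists (206 genes, 203 matched) were chosen with earlier results of these data known.

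Named regions are the 10 in most lists with the highest lowest rank of −log10 q, the 5 strongest of each genotype, the 5 farthest from genes in at least 2 lists, the 5 largest chains, the 12 protein-coding genes nearest to most members (by counts), and those of listed genes found in at least 2 lists. Ties were taken in order of position, which left out 1 chain of 4 regions and, from the genes with 5, Lbx1. Of the chains and of the regions in all 4 lists, 1 each is not reported here. The other regions of all 4 lists were added after their values were seen.

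Group means were compared by a 2-sided exact permutation test over 6 assignments, and differences within libraries by a 2-sided exact sign-flip test. Intervals are 95% Wilson intervals. Alternatives were a −log10 q of at least 5, equal list lengths, distances of 5 and 50 kb, protein-coding genes only, summits for midpoints, 50% reciprocal overlap, a replicate block and each library left out. The software was scipy 1.17.1, pandas 2.3.3, numpy 2.4.6, matplotlib 3.10.9 and Python 3.11.15.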

Additional observations from a re-analysis of the deposited data

How the results depend on the processing

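Of the differences between groups or classes, those in peaks per list and in share changed direction under 1 and 2 alternatives, and others kept their direction but moved in size. Lower recovery (-11.5 to -40.8 points) and a lower share of raised background (-23.9 to -36.3 points) kept their direction under the settings on strength, list length, distance and genes. The strength rank ranged from -0.30 to -14.0 over the same settings.

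With a −log10 q of at least 5 there were 466 distal regions, 21 WT-only, 0 miR-187-only and 7.94% with a neighbour within 10 kb. With equal list lengths there were 344, 6, 5 and 3.78%, and the difference in peaks per list changed from -515.5 to 60. That change rested on miR-187 replicate 2, which kept 201 peaks against 83, 52 and 54; without it the differences at equal lengths were -13.5 peaks and -0.924 points of share (added after seeing the data). A distance of 5 kb gave 131 WT-only regions and 18.3% with a neighbour. A distance of 50 kb gave 426 regions, 4, 0 and 6.57%. Protein-coding genes alone gave 4063 regions, 201, 7 and 21.3%. A longer distance admits fewer regions by construction, and fewer gene classes admit more.

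Leaving out 1 library at a time gave 1345 (without WT replicate 1) to 1859 distal regions, 90 to 775 WT-only, 4 to 301 miR-187-only, and 10.5% (without WT replicate 2) to 15.0% with a neighbour within 10 kb. The difference in share ranged from -1.49 points without miR-187 replicate 2 to 5.50 without miR-187 replicate 1. A group of 1 list needs no overlap, so the counts of 1 genotype rise by construction.

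Over the distal regions, deviations of same-numbered replicates had a correlation of -0.0452 (n = 2024 regions). Of these regions 1724 had a peak in 1 list only, so the value cannot show whether the numbers pair the libraries. The labels do not state a pairing. With a replicate block the difference in peaks per list stayed -515.5 with an exact sign-flip p of 0.5, the smallest that 2 pairs allow, and the difference in share stayed 2.01 points with a p of 1. A typical distal peak held 6 to 12 reads at its summit, and a region absent from a list may lie just under its threshold. No alternative made the depths equal, so the part of depth in these results was not tested.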
